A study of Mus musculus with 8 samples.

Results

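The proteasome is the protease complex that degrades proteins tagged with ubiquitin. Its genes were followed here in the quadriceps muscle of mice with and without a head and neck squamous cell carcinoma. Members were chosen by name in the deposited count table: symbols that start with Psma to Psmg and a number, plus Pomp and Adrm1, without pseudogene symbols and with a summed count of at least 80 over the 8 libraries. This gave 51 genes of the 53819 symbols in the table, and all 51 were tested. Another 2 symbols matched the name but not the count: Psma8, the testis form of an alpha subunit, had a summed count of 2, and Psmb11, the thymus form of a catalytic subunit, had 0. The member with the lowest sum was Psme2b, at 163.1. Of the 51, Psmc3ip (a meiotic recombination factor) and Psme3ip1 (a protein that binds the activator PA28 gamma) share the name pattern but are no part of the complex, which leaves 49 proteasome genes.

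The study set out to characterise muscle wasting (cachexia) in this tumor model. Wild-type C57BL/6J mice, 8 weeks old at the start, received 500000 cells of the carcinoma line B0092 in 200 uL of saline under the skin near the nape of the neck (tumor group, 4 mice), or saline (PBS) alone (control group, 4 mice). Muscle was taken on day 36, when weight loss was about 10%, and polyadenylated RNA was sequenced as 1 library per mouse. The tumor group rests on 1 cell line, and the sex of the mice was not given in the sources used here. Libraries held 28436254 to 36139478 estimated counts, and 14070 genes passed the filter on low counts. Levels are in counts per 1000000 (CPM) after TMM scaling, and tests are edgeR quasi-likelihood tests with Benjamini-Hochberg adjustment over all 14070 genes (called at an adjusted p under 0.05, mean ± SD with n = 4 per group, fold changes on the log2 scale ± SE). Genes that mark muscle fibres summed to 131200.0 to 179930.0 CPM in controls and 135460.0 to 180730.0 CPM in tumor mice 1 to 3, and to 83349 CPM in tumor mouse 4. Of these 10 genes 2 fell (8.73% of all genes), and 1 of the 2 had overlapping groups, with its highest level in control mouse 4. Myosin genes differed between mice of a group. Myh2 was at 5910.8 CPM in control mouse 4 and 53.0 to 1275.5 CPM in controls 1 to 3. Myh1 was at 13645 CPM in tumor mouse 2 and 956.7 to 1806.5 CPM in tumor mice 1, 3 and 4. Replicates were separate mice, and libraries of a group differed by far more than sampling noise.

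As background, the 20S core is a barrel of outer alpha rings (Psma genes) and inner beta rings (Psmb genes), and its proteolytic sites lie on the beta subunits Psmb5, Psmb6 and Psmb7. The 19S cap binds the ends of the barrel. Its base holds a ring of ATPases (Psmc genes) that unfold substrates and pull them in, together with the large scaffold subunits Psmd1 and Psmd2 and the ubiquitin receptors Psmd4 and Adrm1. Its lid (other Psmd genes) removes the ubiquitin chain through Psmd14. Dedicated chaperones assemble both parts and do not stay in the finished particle. Interferon induces alternative catalytic subunits (Psmb8, Psmb9 and Psmb10, the immunosubunits) and the activator PA28 (Psme1 and Psme2), which favour peptides for presentation on MHC class I. In muscle, degradation of contractile proteins by this pathway is a known part of wasting.

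Most genes of the particle itself rose in tumor mice, and none of its chaperones, activators and immunosubunits was called higher. Of the 51 members, 29 rose and 2 fell. Over all genes tested 11.0% rose and 8.73% fell. Among the 32 structural subunits of the core and cap, 28 rose and 0 fell, and the other 4 also had positive log2 fold changes (edgeR). This set leaves out Psmd5, Psmd9 and Psmd10, base chaperones that were set apart after the values had been seen. With them in the lid and base class, 11 of its 15 genes rose. Of the 17 other proteasome genes 0 rose and 2 fell in the same test, although DESeq2 called 1 of them, Psmg4, higher. The median log2 fold change was 0.82 over the 32 structural subunits (1.77-fold, range 0.45 to 1.56), -0.04 over the 17 others and 0.00 over all genes tested. All 4 tumor values lay above all 4 control values for 31 of the 51 members (13.5% of all genes) and below them for 3 members (11.5% of all genes). The remaining rise was that of Psme3ip1, which is outside the particle (log2 fold change 0.56 ± 0.13, adjusted p = 0.0175). That call was lost when control 1, control 2 or tumor 3 was left out (adjusted p from 0.0539 to 0.0666). Psmc3ip measured 1.22, 1.39, 1.53 and 1.45 CPM in controls 1 to 4 and 0.428, 1.36, 0.803 and 1.06 CPM in tumor mice 1 to 4 (log2 fold change -0.61 ± 0.37, adjusted p = 0.268). In whole muscle, a change in the number of cells of a type and a change in RNA per cell cannot be told apart. The count of 29 rises became 19 without control library 1, a fit in which 4.4% of all genes rose, and lay between 22 and 32 without any other single library. Over all fits the share of all genes that rose was 4.4% to 14.0%.

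**Figure D1:**
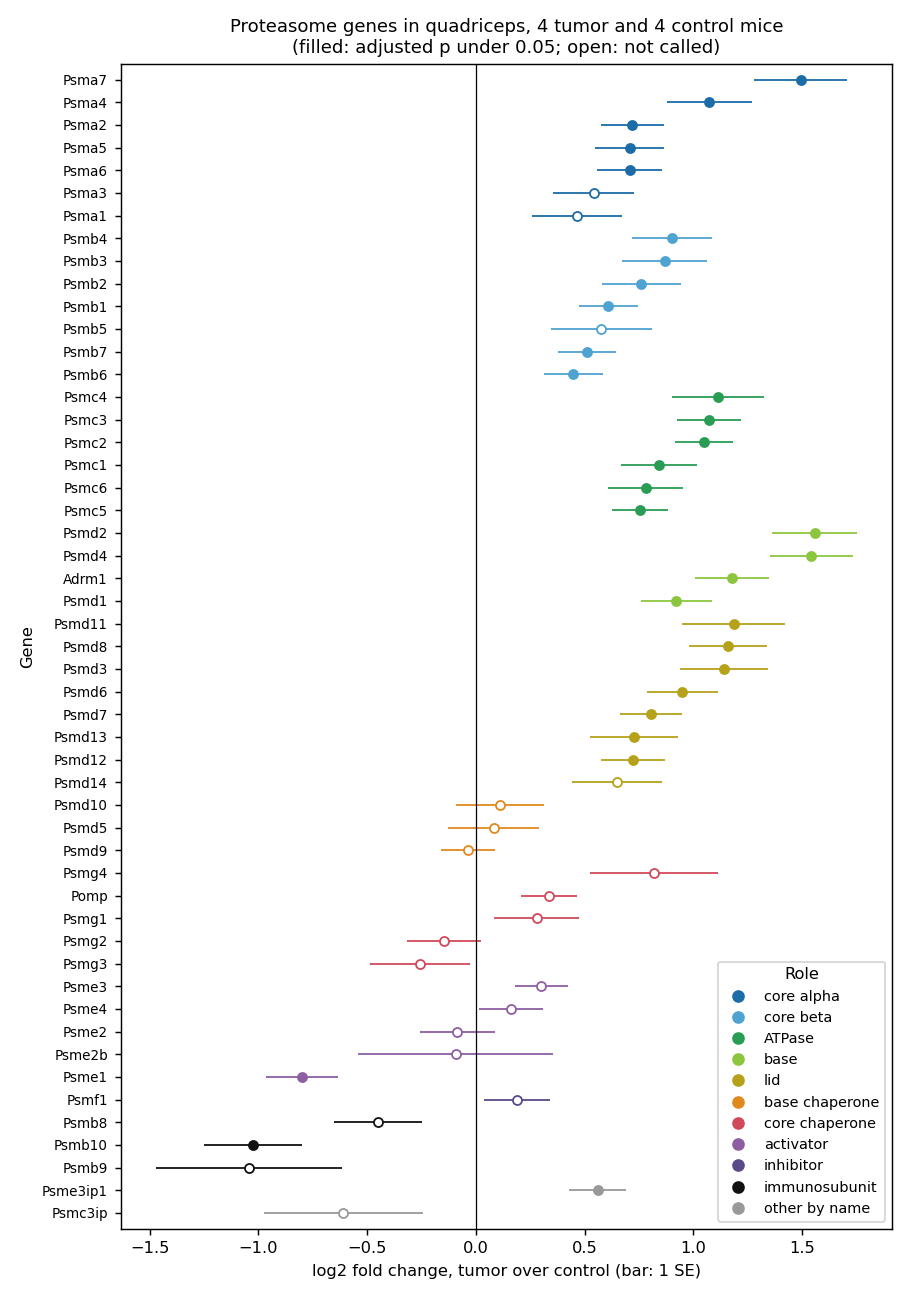
Log2 fold change of tumor over control for each of the 51 genes (x axis; bar, 1 SE; n = 4 mice per group), grouped by role (colour); filled points passed an adjusted p of 0.05 and open points did not. The 32 core and cap genes lie to the right of 0, between 0.45 and 1.56. The chaperones, activators, inhibitor and immunosubunits lie between -1.04 (Psmb9) and 0.34 (Pomp), apart from Psmg4 at 0.82.

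Most genes of the alpha ring rose. This ring gates the entry to the barrel and is where the caps dock. Of the 7 alpha genes, 5 rose (11.0% of all genes), and the median of all 7 on the log2 scale was 0.71. Psma7 (subunit alpha 4) had 69.5, 68.8, 74.5 and 67.97 CPM in controls 1 to 4 and 120.1, 200.1, 198 and 272 CPM in tumor mice 1 to 4. The groups were well apart, and tumor mouse 1 was the lowest of its group. The rise was 2.81-fold (log2 fold change 1.49 ± 0.21, adjusted p = 0.00393, edgeR). Psma4 (alpha 3) measured 90.02, 85.8, 97.3 and 89.3 CPM in controls 1 to 4 and 132, 186, 176 and 267 CPM in tumor mice 1 to 4, a rise of 2.103-fold (log2 fold change 1.07 ± 0.19, adjusted p = 0.00739). For Psma2 (alpha 2) the values were 54.9, 57.03, 62.2 and 58.7 CPM in controls 1 to 4 and 75.02, 105, 88.6 and 115 CPM in tumor mice 1 to 4 (1.65-fold, adjusted p = 0.0101). In both of these genes the groups did not overlap and tumor mouse 4 was highest. Psma5 and Psma6 rose 1.63-fold and 1.63-fold. Their calls were lost when control 1 or control 2 was left out (adjusted p from 0.05005 to 0.058997) for Psma5 and when control 1 was left out (adjusted p = 0.0504) for Psma6.

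Psma1 and Psma3 did not pass. Psma1 (alpha 6) measured 47.5, 45.6, 59.3 and 49.7 CPM in controls 1 to 4 and 47.3, 87.6, 56.8 and 86.96 CPM in tumor mice 1 to 4 (log2 fold change 0.46 ± 0.21, adjusted p = 0.141, edgeR). Tumor mice 1 and 3 lay within the control range and tumor mice 2 and 4 above it. Psma3 (alpha 7) measured 90.5, 96.996, 115 and 86.6 CPM in controls 1 to 4 and 107, 131, 134 and 195 CPM in tumor mice 1 to 4 (log2 fold change 0.54 ± 0.19, adjusted p = 0.0684), with only tumor mouse 1 inside the control range. Both passed without tumor library 1 (adjusted p = 0.0434 for Psma1 and 0.0351 for Psma3). Psma3 also passed by DESeq2 (adjusted p = 0.0347).

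Most genes of the beta ring rose as well. Of the 7 beta genes, 6 rose (11.0% of all genes), and all 7 had groups that did not overlap (13.5% of all genes). Psmb4 (beta 7) had 68.5, 64.4, 73.7 and 74.2 CPM in controls 1 to 4 and 92.3, 147, 114 and 171 CPM in tumor mice 1 to 4 (1.87-fold, log2 fold change 0.90 ± 0.18, adjusted p = 0.0109, edgeR). Psmb1 (beta 6) measured 70.7, 76.4, 83.5 and 70.7 CPM in controls 1 to 4 and 92.4, 119, 113 and 135 CPM in tumor mice 1 to 4 (1.53-fold, adjusted p = 0.0149), and Psmb3 (beta 3) 44.3, 44.9, 46.9 and 43.8 CPM in controls 1 to 4 and 57.97, 75.4, 76.8 and 118 CPM in tumor mice 1 to 4 (1.82-fold, adjusted p = 0.0155). In these 3 genes each tumor value lay above each control value, with tumor mouse 1 closest to the controls. Psmb2 (beta 4) rose 1.69-fold (adjusted p = 0.0201). The calls were lost when control 1 was left out (adjusted p = 0.0599) for Psmb1, when control 1 was left out (adjusted p = 0.0547) for Psmb3 and when control 1 or control 2 was left out (adjusted p from 0.0609 to 0.0647) for Psmb2.

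The 3 constitutive catalytic genes had log2 fold changes between 0.45 and 0.58, with Psmb1 next at 0.61. Psmb5 lay above Psmb1 when control 1, tumor 2 or tumor 3 was left out, so this order is not firm, and the difference between catalytic and other beta genes was not tested. Psmb6 (caspase-like site) measured 140.3, 143, 145 and 135 CPM in controls 1 to 4 and 163, 194, 175 and 236 CPM in tumor mice 1 to 4, a rise of 1.36-fold (log2 fold change 0.45 ± 0.13, adjusted p = 0.0441, edgeR). Psmb7 (trypsin-like site) measured 139.5, 141, 148 and 128 CPM in controls 1 to 4 and 166, 208, 186 and 234 CPM in tumor mice 1 to 4, a rise of 1.43-fold (log2 fold change 0.51 ± 0.13, adjusted p = 0.0264). The tumor values of both lay above every control value, but the steps were small. The Psmb6 call was lost when control 1, control 2, control 3, control 4, tumor 2, tumor 3 or tumor 4 was left out (adjusted p from 0.0748 to 0.117), and that of Psmb7 when control 1, control 2, control 3, control 4, tumor 2 or tumor 3 was left out (adjusted p from 0.0504 to 0.0805). Psmb5 (chymotrypsin-like site, the target of the drug bortezomib) measured 81.4, 75.1, 76.9 and 72.5 CPM in controls 1 to 4 and 84.5, 94.4, 93.7 and 183 CPM in tumor mice 1 to 4 and missed the threshold (log2 fold change 0.58 ± 0.23, adjusted p = 0.109). Its tumor mouse 4 stood far above the other 3, which lay just over the controls. Without tumor library 4 the log2 fold change of Psmb5 was 0.24 (adjusted p = 0.152).

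All 6 ATPase genes rose (11.0% of all genes) and had groups without overlap (13.5% of all genes). Their log2 fold changes lay between 0.75 and 1.11 (median 0.95). These proteins form the unfolding ring of the base. Psmc2 (Rpt1) measured 97.4, 96.3, 107 and 103 CPM in controls 1 to 4 and 163, 231, 215 and 226 CPM in tumor mice 1 to 4 (2.07-fold, log2 fold change 1.05 ± 0.14, adjusted p = 0.00345, edgeR). Psmc3 (Rpt5) measured 160.5, 159, 179 and 161 CPM in controls 1 to 4 and 267, 359, 354 and 407 CPM in tumor mice 1 to 4 (2.102-fold, adjusted p = 0.00355), and Psmc5 (Rpt6) 94.2, 96.9, 98.1 and 95.7 CPM in controls 1 to 4 and 133, 178, 153 and 185 CPM in tumor mice 1 to 4 (1.69-fold, adjusted p = 0.00574). Control mouse 3 was the highest control in each, and in Psmc3 it stood apart from the other 3 controls, while tumor mouse 1 was the lowest tumor value in each. Psmc4 rose 2.16-fold, Psmc1 1.79-fold and Psmc6 1.72-fold, the last losing its call when control 1 or control 2 was left out (adjusted p from 0.0521 to 0.0599).

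All 4 base genes of the cap rose (11.0% of all genes). Psmd2 and Psmd4 among them had, with Psma7 of the core, the 3 largest log2 fold changes of all members. The order of these 3 changed with the library left out: without tumor 2, Psma7 (1.46) lay above Psmd4 (1.42). Psmd4 (Rpn10, a ubiquitin receptor) measured 129.6, 130.4, 147 and 127 CPM in controls 1 to 4 and 257, 460.5, 375 and 465 CPM in tumor mice 1 to 4 (2.91-fold, log2 fold change 1.54 ± 0.19, adjusted p = 0.00294, edgeR). Psmd2 (Rpn1, the scaffold that docks ubiquitin shuttles and the deubiquitinase Usp14) measured 276, 271, 290.3 and 277 CPM in controls 1 to 4 and 547, 814, 843 and 1074 CPM in tumor mice 1 to 4 (2.94-fold, log2 fold change 1.56 ± 0.20, adjusted p = 0.003099). Adrm1 (Rpn13, another ubiquitin receptor) measured 94.1, 98.4, 116 and 96.1 CPM in controls 1 to 4 and 163, 227, 243 and 280.2 CPM in tumor mice 1 to 4 (2.26-fold, adjusted p = 0.00399). In each of these genes every tumor value was at least 1.4 times the highest control. Psmd1 (Rpn2), the scaffold to which Adrm1 binds, rose 1.89-fold (adjusted p = 0.00681).

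Of the 8 lid genes, 7 rose (11.0% of all genes), and the median of the 8 on the log2 scale was 0.88. Psmd11 rose 2.27-fold, Psmd8 2.23-fold, Psmd3 2.204-fold, Psmd6 1.93-fold, Psmd7 1.75-fold, Psmd13 1.66-fold and Psmd12 1.65-fold. These 7 had groups that did not overlap (13.5% of all genes). Psmd13 lost its call when control 1, control 2, control 3, control 4 or tumor 3 was left out (adjusted p from 0.06496 to 0.0896). Psmd14 (Rpn11), the lid's deubiquitinase, did not pass: it measured 40.1, 37.4, 48.4 and 38.5 CPM in controls 1 to 4 and 42.2, 73.3, 56.9 and 85.3 CPM in tumor mice 1 to 4 (log2 fold change 0.65 ± 0.21, adjusted p = 0.0518, edgeR), with tumor mouse 1 inside the control range. It passed when tumor 1 was left out (adjusted p = 0.0126), by DESeq2 (adjusted p = 0.0212) and with a stricter count filter (adjusted p = 0.0474). A further lid subunit is encoded by Sem1, whose symbol is outside the name rule. Sem1 measured 71.2, 69.6, 71.9 and 76.01 CPM in controls 1 to 4 and 74.99, 66.2, 75.3 and 78.5 CPM in tumor mice 1 to 4, and the groups overlapped (log2 fold change 0.03 ± 0.10, adjusted p = 0.857). With upper-quartile scaling or without tumor library 4 its log2 fold change was slightly negative (-0.04 and -0.01).

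Promoter sequences were examined because the core and cap genes moved together. Vertebrate proteasome genes are known targets of the transcription factor NRF1 (gene Nfe2l1), which binds antioxidant response elements. RefSeq promoter windows (GRCm38.p6, from 250 bases before to 50 after the start) were at hand for 44 of the 51 members and 26 of the 32 structural subunits. They were matched by symbol. The element's core, TGACNNNGC on either strand, was found in 5 of these 26 genes (19.2%) against 14.0% of 27025 genes with a window, a share near the background. The following 4 stretches, from the matching structural genes with the smallest p, show where these letters fall, with the match in capitals and each written in the direction of its gene.
Adrm1: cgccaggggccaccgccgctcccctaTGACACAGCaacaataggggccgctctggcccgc
Psmd12: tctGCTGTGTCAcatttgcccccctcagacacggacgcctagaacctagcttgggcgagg
Psmc6: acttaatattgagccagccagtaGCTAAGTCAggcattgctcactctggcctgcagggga
Psmb6: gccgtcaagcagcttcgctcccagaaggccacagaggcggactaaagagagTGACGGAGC
They lie at chr2:180171400-180171459, plus strand (Adrm1), chr11:107479278-107479337, plus strand (Psmd12), chr14:45329574-45329633, plus strand (Psmc6) and chr11:70525297-70525356, plus strand (Psmb6), in GRCm38.p6. The match began 162 bases before the start of Adrm1, 247 before that of Psmd12, 227 before that of Psmc6 and 9 before that of Psmb6. In Psmd12 and Psmc6 it read as the reverse complement. The fifth gene with a match was Psmb5. The CCAAT box, CCAAT on either strand, was found in 11 of the 26 (42.3%), against 41.1% of all genes with a window. The interferon regulatory factor element, GAAANNGAAA on either strand, was found in 2 of the 26, in 0 of the 3 immunosubunits and in 3 of 13 other proteasome genes with a window (Psmd9, Psme1 and Psmg4), against 3.99% of all genes with a window. The gamma-activated site, TTCNNNGAA, was found in 1 of the 26 and in 1 immunosubunit, Psmb8, against 9.55%. Psmd4 had CCAAT and the interferon regulatory factor element in this window but not the antioxidant element, while Adrm1 had CCAAT and the antioxidant element.

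Assembly chaperones had no called change in either direction in the edgeR test. The class holds 5 genes of core assembly (Psmg1 to Psmg4 and Pomp), which guide the alpha and beta rings, and 3 genes that carry Psmd names but encode chaperones of the base (Psmd5, Psmd9 and Psmd10, the last known as gankyrin). These 3 were set apart from the lid and base by their role after the values had been seen. On the log2 scale the 8 genes had a median of 0.10 and lay between -0.26 and 0.82. Pomp, which matures the catalytic sites, measured 47.8, 49.5, 50.9 and 49.998 CPM in controls 1 to 4 and 54.9, 57.5, 59.9 and 77.8 CPM in tumor mice 1 to 4 (log2 fold change 0.34 ± 0.13, adjusted p = 0.0919). Its groups did not overlap, but tumor mice 1 to 3 were close to the controls. Psmg4 was low, at 1.88, 1.36, 2.92 and 1.81 CPM in controls 1 to 4 and 2.47, 3.51, 3.41 and 4.71 CPM in tumor mice 1 to 4 (log2 fold change 0.82 ± 0.30, adjusted p = 0.0796), and passed when control 3 was left out (adjusted p = 0.0455) and by DESeq2. Psmg1 measured 9.16, 10.3, 7.18 and 7.28 CPM in controls 1 to 4 and 10.9, 7.89, 9.16 and 13.2 CPM in tumor mice 1 to 4 (log2 fold change 0.28 ± 0.19, adjusted p = 0.338). Both genes had overlapping groups, and their highest value was in tumor mouse 4.

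Psmg2 and Psmg3 had negative log2 fold changes. Psmg2 measured 9.64, 10.5, 12.1 and 9.53 CPM in controls 1 to 4 and 10.3, 6.69, 9.67 and 10.99 CPM in tumor mice 1 to 4 (log2 fold change -0.15 ± 0.17, adjusted p = 0.583, edgeR), and Psmg3 5.29, 3.804, 4.46 and 4.82 CPM in controls 1 to 4 and 3.32, 2.63, 4.75 and 4.65 CPM in tumor mice 1 to 4 (log2 fold change -0.26 ± 0.23, adjusted p = 0.465). The groups of both genes overlapped. Among the base chaperones, Psmd5 measured 12.6, 12.4, 14.9 and 13.04 CPM in controls 1 to 4 and 11.7, 11.3, 11.7 and 21.2 CPM in tumor mice 1 to 4 (log2 fold change 0.08 ± 0.21, adjusted p = 0.817), Psmd9 17.1, 13.4, 15.8 and 14.3 CPM in controls 1 to 4 and 16.4, 13.4, 13.6 and 15.6 CPM in tumor mice 1 to 4 (log2 fold change -0.04 ± 0.13, adjusted p = 0.862) and Psmd10 6.196, 8.44, 7.93 and 6.45 CPM in controls 1 to 4 and 8.76, 7.401, 5.46 and 9.703 CPM in tumor mice 1 to 4 (log2 fold change 0.11 ± 0.20, adjusted p = 0.736). In Psmd5 tumor mice 1 to 3 lay under every control and tumor mouse 4 above, and without tumor library 4 its log2 fold change was -0.20. Signs also changed without tumor library 4 for Psmd10 (-0.02), and without control library 1 (0.03) or tumor library 3 (0.0019) for Psmd9. Each of these 5 genes lay at or under 21.2 CPM in every library, lower than any core or cap subunit (25.5 CPM and above).

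The activators and the inhibitor split, with a single called change, a fall of Psme1. Psme1 (PA28 alpha) measured 26.2, 28.1, 25.5 and 33.9 CPM in controls 1 to 4 and 19.8, 13.96, 13.04 and 18.4 CPM in tumor mice 1 to 4, a fall of 1.74-fold (log2 fold change -0.80 ± 0.16, adjusted p = 0.0113, edgeR), and every tumor value lay under every control value. Its partner Psme2 (PA28 beta) measured 12.01, 13.2, 12.8 and 10.8 CPM in controls 1 to 4 and 12.7, 8.699, 10.02 and 14.6 CPM in tumor mice 1 to 4 (log2 fold change -0.09 ± 0.17, adjusted p = 0.763), with groups that overlapped. Psme2b, a copy of Psme2 with which reads may be shared, measured 0.905, 0.728, 0.608 and 0.435 CPM in controls 1 to 4 and 0.527, 0.649, 0.289 and 1.03 CPM in tumor mice 1 to 4 (log2 fold change -0.09 ± 0.45, adjusted p = 0.904), and its sign changed without control library 1 (0.08) or tumor library 3 (0.14). Whether the changes of Psme1 and Psme2 differ was not tested.

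The other caps of the core did not pass. Psme3 (PA28 gamma, a nuclear activator) measured 51.5, 52.8, 55.1 and 61.6 CPM in controls 1 to 4 and 59.8, 62.03, 73.2 and 77.1 CPM in tumor mice 1 to 4 (log2 fold change 0.30 ± 0.12, adjusted p = 0.1103, edgeR). Psme4 (PA200, an activator that acts without ubiquitin) was the most abundant of the class at 392, 391, 406 and 298 CPM in controls 1 to 4 and 423, 472, 403 and 365 CPM in tumor mice 1 to 4 (log2 fold change 0.16 ± 0.15, adjusted p = 0.468). Control mouse 4 was the lowest of all 8, and without it and tumor library 2 the log2 fold change of Psme4 was -0.0041. Psmf1 (PI31, known as an inhibitor of the core) measured 9.61, 10.3, 9.84 and 10.4 CPM in controls 1 to 4 and 10.2, 13.4, 13.3 and 8.96 CPM in tumor mice 1 to 4 (log2 fold change 0.19 ± 0.15, adjusted p = 0.412). The groups of these 3 genes overlapped.

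The immunosubunits had lower levels in tumor mice, and 1 of the 3 fell (8.73% of all genes). Psmb10 (MECL-1) measured 5.67, 6.12, 7.15 and 7.14 CPM in controls 1 to 4 and 2.403, 3.38, 2.57 and 4.45 CPM in tumor mice 1 to 4, a fall of 2.03-fold (log2 fold change -1.02 ± 0.22, adjusted p = 0.0144, edgeR). All tumor values lay under all control values. The call was lost when tumor 3 was left out (adjusted p = 0.0512). Psmb8 (LMP7) measured 4.04, 5.26, 4.02 and 3.59 CPM in controls 1 to 4 and 3.39, 3.51, 2.63 and 2.84 CPM in tumor mice 1 to 4 and missed the threshold (log2 fold change -0.45 ± 0.20, adjusted p = 0.141), although its groups did not overlap. Psmb9 (LMP2) measured 2.65, 2.05, 2.84 and 0.688 CPM in controls 1 to 4 and 1.25, 1.17, 0.739 and 0.833 CPM in tumor mice 1 to 4 and missed the threshold (log2 fold change -1.04 ± 0.43, adjusted p = 0.115). Control mouse 4 was the lowest of all 8, and without that library Psmb9 passed (adjusted p = 0.0225). These are low levels: the counts behind them were 73 to 247 for Psmb10, 82 to 159 for Psmb8 and 19 to 98 for Psmb9.

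Each immunosubunit replaces 1 constitutive subunit at its catalytic site, so the log2 ratio of the pair was compared in each library, a value that library scaling leaves almost unchanged (0.5 CPM added to both). The ratio of Psmb10 to Psmb7 was -4.50, -4.41, -4.28 and -4.08 in controls 1 to 4 and -5.84, -5.75, -5.92 and -5.56 in tumor mice 1 to 4. It went from -4.32 ± 0.19 in controls to -5.77 ± 0.15 in tumor mice (SD, n = 4 each), 2.73-fold lower (two-sided exact permutation p = 0.0286, the smallest that 4 against 4 allows, adjusted p = 0.0429 over the 3 ratios). The ratio of Psmb8 to Psmb5 was -4.17, -3.71, -4.10 and -4.16 in controls 1 to 4 and -4.45, -4.57, -4.91 and -5.78 in tumor mice 1 to 4. It went from -4.04 ± 0.22 in controls to -4.93 ± 0.60 in tumor mice, 1.85-fold lower (exact permutation p = 0.0286, adjusted p = 0.0429). Groups did not overlap in either ratio. The ratio of Psmb9 to Psmb6 was -5.48, -5.81, -5.45 and -6.84 in controls 1 to 4 and -6.55, -6.87, -7.14 and -7.47 in tumor mice 1 to 4, and control mouse 4 lay inside the tumor range. It went from -5.89 ± 0.65 in controls to -7.01 ± 0.39 in tumor mice and did not pass (exact permutation p = 0.0571, adjusted p = 0.0571). The calls were lost when control 1, control 2, control 3 or control 4 was left out for Psmb8 to Psmb5 (adjusted p up to 0.0857), and control 1, control 2 or control 3 for Psmb10 to Psmb7 (adjusted p = 0.0857), while Psmb9 to Psmb6 passed without control 4 (adjusted p = 0.0429, exact permutation tests). With 3 against 4 libraries the smallest exact permutation p is 0.0286 before adjustment, so p moves in coarse steps. With 1 library left out the differences ran over -1.05 to -0.61 for Psmb8 to Psmb5 and -1.52 to -1.37 for Psmb10 to Psmb7. As a share of the counts of the pair, Psmb8 made up 5.24% ± 0.879 in controls and 2.92% ± 1.05 in tumor mice, Psmb9 1.42% ± 0.651 in controls and 0.533% ± 0.184 in tumor mice, and Psmb10 4.49% ± 0.595 in controls and 1.57% ± 0.225 in tumor mice (n = 4 per group).

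**Figure D2:**
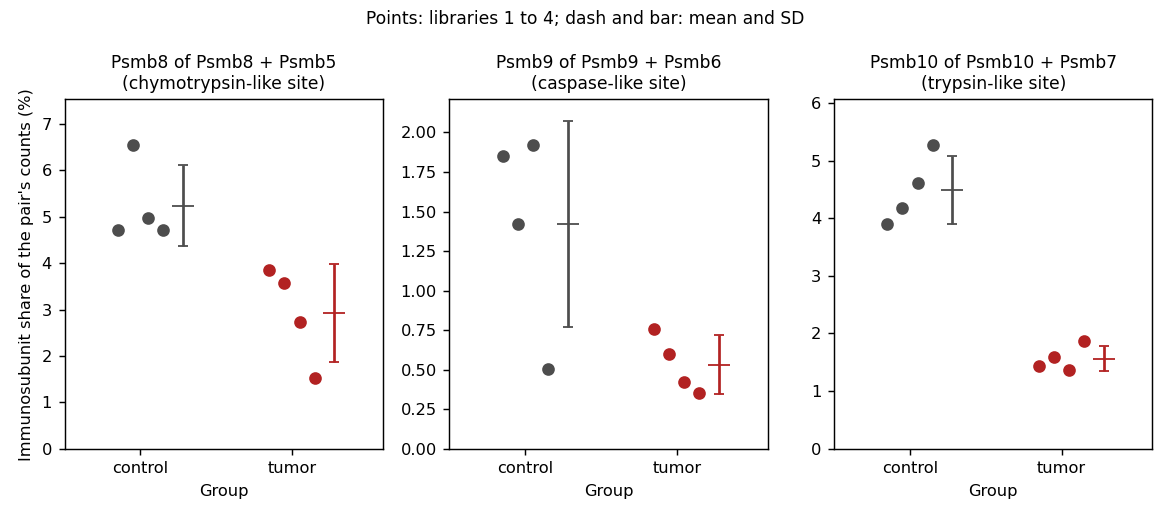
Share of each immunosubunit in the summed counts of the immunosubunit and the constitutive subunit it replaces (y axis, percent, from 0), for the 4 control and 4 tumor libraries (points; dash and bar, mean and SD). The tumor libraries lie under all controls for Psmb8 and Psmb10, and for Psmb9 the lowest control lies among the tumor values.

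Immune cells express immunosubunits strongly, so their markers are given beside these values. Of 15 leukocyte markers, 9 were tested and 1 rose (11.0% of all genes), S100a8, from 0 to 0.405 CPM in controls and 0.386 to 2.04 CPM in tumor mice. The lymphocyte markers Cd3e, Cd4, Cd8a, Cd79a and Nkg7 had at most 9 counts in any library. The summed level of the list was 24.0 to 44.2 CPM in controls and 16.4 to 72.7 CPM in tumor mice. It was highest in tumor mouse 4, where the macrophage gene Cd68 was at 33.0 CPM. In that mouse Adgre1 (2.81 CPM) and Csf1r (11.2 CPM), also macrophage genes, lay within their control ranges, and Itgam (6.32 CPM) lay above its own. The endothelial list was lower in tumor mice, with 3 of 6 markers called lower (8.73% of all genes) and a sum of 128.8 to 192 CPM in controls against 63.3 to 112.9 CPM in tumor mice. The part of these cells in the levels of Psmb8, Psmb9, Psmb10 and Psme1 was not tested. The squamous epithelial list, which marks the tumor's cell type, summed to 7.62 to 10.7 CPM in controls and 17.4 to 38.4 CPM in tumor mice. Most of this sum was 1 gene, Trp63 (p63, a factor of basal epithelial cells), which was present in every control. Of the 10 markers 2 were tested and 1 rose (11.0% of all genes). This was Trp63, at 6.27 to 9.40 CPM in controls and 15.7 to 36.2 CPM in tumor mice (adjusted p = 0.00484, edgeR). The defining keratins Krt5, Krt14, Krt6a and Krt17, and Dsg3, were at 0 counts in all 8 libraries, and Krt16, Cdh1 and Epcam had at most 10. The part of epithelial cells in the results was not tested.

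Psmb9, Tap1, Psmb8 and Tap2 are neighbours in that order in the MHC region of the RefSeq annotation. Of 16 genes listed for the MHC class I peptide pathway, 1 rose and 1 fell, with a median log2 fold change of -0.22. Over all genes tested 11.0% rose and 8.73% fell, so these counts were no higher than the shares over all genes. Whether the pathway changed as a set was not tested. The chaperone gene Canx (calnexin) rose 1.83-fold (adjusted p = 0.02498, edgeR), a call lost when control 1, control 2, control 3 or tumor 3 was left out (adjusted p up to 0.0828).

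Tumor mice differed in the size of the rise. Over the 32 structural subunits, the median fold over the control mean was 1.33 in tumor mouse 1, 1.96 in tumor mouse 2, 1.68 in tumor mouse 3 and 2.199 in tumor mouse 4. Tumor mouse 1 was the lowest tumor value for all 32 subunits, and tumor mouse 4 the highest for 27. Tumor mouse 4 was also the library with the lowest sum of muscle fibre markers (83349 CPM) and the highest of leukocyte markers. Of that leukocyte sum of 72.7 CPM, 33.0 CPM came from the single gene Cd68. Without tumor library 4 the structural count was 27 of 32, with a median log2 fold change of 0.71. In that fit 10.5% of all genes rose. Among controls, mouse 3 was the highest for 28 of the 32 subunits, with a median fold of 1.12 over the mean of the other controls. The members thus varied together from mouse to mouse, so that their calls are not independent of each other. By role, the median log2 level over the control mean ran in tumor mice from 0.25 to 1.097 for the beta ring, from 0.37 to 0.98 for the alpha ring, from 0.45 to 1.14 for the ATPases, from 0.46 to 1.26 for the lid and from 0.81 to 1.64 for the base subunits.

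**Figure D3:**
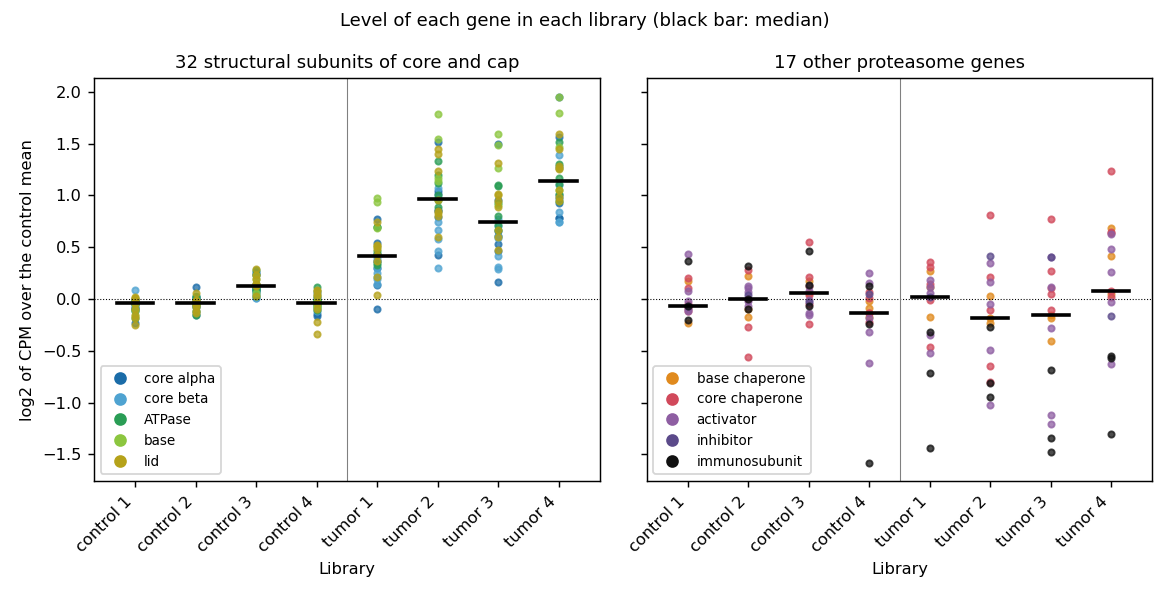
Level of each gene in each library as log2 of its CPM over the control mean (y axis), for the 32 structural subunits (left) and the 17 other proteasome genes (right); points are genes coloured by role and black bars are medians. On the left the 4 tumor medians lie between 0.41 and 1.14 with tumor mouse 1 lowest. On the right the genes scatter around 0, and the immunosubunits (black) and the activator Psme1 lie under 0 in every tumor library.

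The transcripts of the particle were not at equal levels. Per kb of transcript (1 annotated principal transcript per gene, on which these values depend), control means ran from 19.996 CPM per kb for Psma2 to 176 CPM per kb for Psmb6. The transcript used for Psma2 has 2911 bases. For Psma2 and Psma3 the transcript used is much longer than another annotated transcript of the same gene, so their low levels per kb, and the place of Psma2 as lowest, rest on that choice. Psmb6, Psmd8 (136), Psmb7 (119.9) and Psmd7 (103) had the highest control levels per kb. In tumor mice the highest were Psmd8 (303), Psmd4 (292), Psmd2 (277) and Psmb6 (241 CPM per kb). The SD of the log2 level per kb over the 32 subunits was 0.73 to 0.79 in control libraries and 0.86 to 0.93 in tumor libraries. The fold between the highest and the lowest subunit overlapped between the groups, at 8.41 to 9.32 in control libraries and 8.86 to 11.1 in tumor libraries. Transcript length cancels in each gene's fold change, not in this spread.

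**Figure D4:**
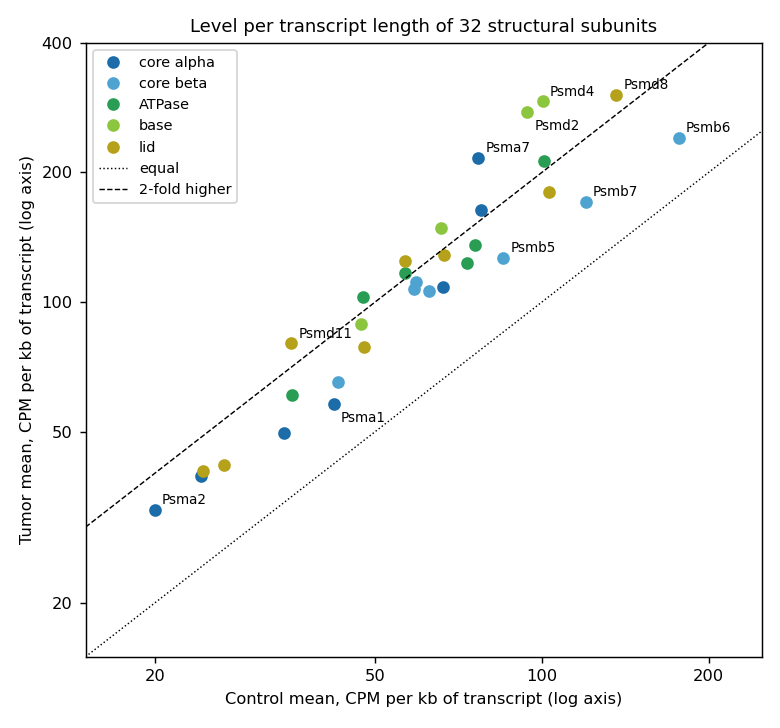
Mean level per kb of transcript of the 32 structural subunits in control (x axis) and tumor mice (y axis), both in CPM per kb on log axes, coloured by role, with lines for equal levels and for a 2-fold rise. All points lie above the line of equal levels, with Psmd2, Psmd4 and Psma7 furthest above the 2-fold line and Psmb6 and Psma1 nearest to equality.

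Genes that control or assist the proteasome rose in part. Of 10 tested regulators 6 rose (11.0% of all genes) and 0 fell (median on the log2 scale, 0.59). Ddi2, the protease that activates NRF1, rose 2.201-fold from 95.8 ± 23.9 to 211 ± 55.9 CPM (log2 fold change 1.14 ± 0.23, adjusted p = 0.0109, edgeR). Ngly1, which removes the sugars of NRF1, rose 1.63-fold (adjusted p = 0.00671), and Keap1, the adaptor that keeps NRF2 low, rose 1.52-fold (adjusted p = 0.0102). Nfe2l1, the NRF1 gene itself, measured 668, 629.8, 746 and 1062 CPM in controls 1 to 4 and 721, 975, 928 and 1377 CPM in tumor mice 1 to 4 and missed the threshold (log2 fold change 0.37 ± 0.24, adjusted p = 0.304). Nfe2l2, which encodes NRF2, rose 1.68-fold (adjusted p = 0.0314), a call lost when control 1, control 2, control 3, tumor 2 or tumor 3 was left out (adjusted p up to 0.0993).

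Of 17 tested proteins that bind the proteasome, 5 rose (11.0% of all genes) and 0 fell (median on the log2 scale, 0.45). Txnl1, a thioredoxin-like protein of the cap, rose 1.94-fold (adjusted p = 0.00934, edgeR). Pithd1 rose 1.44-fold (adjusted p = 0.0156) and the deubiquitinase gene Usp14 1.68-fold (adjusted p = 0.0261). Single left-out libraries ended the calls of Pithd1 (control 1 or 2 or tumor 3, adjusted p up to 0.0566) and Usp14 (control 1, 2 or 4 or tumor 2, 3 or 4, adjusted p up to 0.0815). Of 12 genes of the VCP unfoldase, which extracts ubiquitin-tagged proteins before degradation, and its adaptors, 6 rose (11.0% of all genes) and 0 fell. Nploc4 rose 3.28-fold, from 78.7 ± 17.6 to 259 ± 79.8 CPM (adjusted p = 0.00428), Faf1 1.75-fold and Ubxn6 1.58-fold. Vcp itself went from 490.04 ± 66.8 to 679.96 ± 117 CPM and missed the threshold (log2 fold change 0.47 ± 0.17, adjusted p = 0.0768), but passed without tumor library 1 and by DESeq2 (adjusted p down to 0.0279).

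For comparison, 3 other cytosolic complexes were counted in the same fit, in which 11.0% of all genes rose. The COP9 signalosome and the initiation factor eIF3 share ancestry with the lid, and CCT is the cytosolic chaperonin. Of 10 COP9 genes 4 rose (median log2 fold change 0.20), led by Cops3 (1.398-fold), Cops4 (1.43-fold) and Cops5 (1.57-fold), all with calls lost when control 1, control 2 or tumor 3 was left out, and for Cops4 also control 3 (adjusted p up to 0.0793). Of 14 eIF3 genes 10 rose (median 0.65), led by Eif3e (1.72-fold), Eif3c (1.89-fold) and Eif3b (1.798-fold). Of 8 CCT genes 2 rose (median 0.17), Cct2 (1.51-fold) and Tcp1 (1.37-fold, lost when control 1, control 2 or tumor 3 was left out, adjusted p up to 0.0696). No gene of these 3 complexes fell at an adjusted p under 0.05. The shares called were 28 of 32 for the core and cap, 10 of 14 for eIF3, 4 of 10 for COP9 and 2 of 8 for CCT. These sets were not built by the same rule. The core and cap set leaves out the lid subunit Sem1, which was not called, and the eIF3 list counts Eif3j1 and Eif3j2 as separate genes. The core and cap set was fixed after the values had been seen, and whether the shares differ was not tested.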

How the data were processed

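RNA from quadriceps muscle of 4 control and 4 tumor mice was measured as 1 library each, grouped by the sample labels. The deposited table gives estimated counts, made by the authors, for 53819 symbols, in which 9% of values were not whole. The genome build was GRCm39, and Salmon 1.10.1, STAR 2.7.9a, R 4.2.2, Trim Galore 0.6.7 and cutadapt 3.4 are named, per the submitters' processing notes. The step each served, the annotation and the strand setting were not stated there. Estimated counts divide reads between near-identical copies: 14 of the 51 members had values more than 0.01 from a whole number, among them Psmd2, Adrm1, Psmb5, Psme2 and Psme2b, and are less certain for it.

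Counts were rounded, filtered with filterByExpr (minimum count 10), scaled by TMM and tested with edgeR 4.0.16 (R 4.3.3) on all 14070 genes kept, in a model of group alone. Ratios of single genes were tested by exact permutation over 70 splits. Alternatives covered scaling, count filters, DESeq2 1.42.0, limma-voom (limma 3.58.1), left-out libraries and the replicate number as a block. The replicate numbers pair no samples by the labels. On simulated counts for 14070 genes with the library sizes of this comparison, 30% of genes changed 2-fold and 84% of those changed 4-fold were called. Of these calls 0 had the wrong sign, and 3.39% of all calls were false. The simulation changed few genes and drew each gene independently (118 calls, against 2781 in the data), so these shares need not hold for the data.

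Members, gene lists and tests were chosen with earlier results of these data known. Named genes were all members, by class, with values in every library for the catalytic subunits and immunosubunits, up to 3 members per other class with the smallest p, and members that fell or did not pass. From 7 lists of related genes, up to 3 called genes with the smallest p were named, and Nfe2l1, Nfe2l2, Sem1, Usp14 and Vcp. Motifs other than the antioxidant element were added after the values had been seen. Summed marker levels of fibro-adipogenic cells (170.9 to 358.8 CPM), adipocytes (4.17 to 230.3 CPM), red cells (29.1 to 175.6 CPM) and satellite cells (2.14 to 4.33 CPM) overlapped between groups, with 0 genes called. Some genes that this rule would name are not reported here. Promoters came from RefSeq (GRCm38.p6), and transcript lengths from GENCODE M21. A check of each library pair within a group gave a chi-square per degree of freedom of at least 29.91, so no pair agreed within sampling noise.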

Additional observations from a re-analysis of the deposited data

Results flagged for a closer look

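In 5 of 102 group checks (51 genes in 2 groups), 1 library lay far from the other 3 of its group, by Dixon's gap criterion at the 95% level. Chance alone flags about 1 group in 20. Tumor mouse 4 was far above its group for Psmb5, at 183 CPM against 84.5 to 94.4 CPM in the other 3, and for Psmd5, at 21.2 CPM against 11.3 to 11.7 CPM in the other 3. Control mouse 3 was far above its group for Psmc3, at 179 CPM against 159 to 161 CPM in the other 3, and for Psmd4, at 147 CPM against 127 to 130.4 CPM in the other 3. Control mouse 4 was far under its group for Psme4, at 298 CPM against 391 to 406 CPM in the other 3. Psmc3 and Psmd4 rose also without control library 3, at 2.17-fold and 3.02-fold.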

How the results depend on the processing

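Of the 31 called members, 20 kept their call and direction under all 17 alternatives, among them Psmd2, Psmd4, Adrm1, Psma7, Psmc2 and Psme1, and 11 lost the call under at least 1, with 0 reversed. Of the 20 others, 5 gained a call under at least 1. With 1 library left out the count of rises ran from 19 to 32 and that of falls from 1 to 3. It was 19 without control replicate 1, a fit in which 630 genes rose in all against 1552 with all libraries, and the falls were 1 without tumor replicate 3. Under the scaling, filter and test alternatives the rises numbered 27 to 32. DESeq2 called 1931 genes higher in all and no count filter 1213, and upper-quartile scaling, which moved the share of higher calls from 55.8% to 43.0%, left 28 rises and 2 falls among the members. With the replicate number as a block, which paired no samples in the data (correlations of same-numbered deviations 0.016 to 0.197, with 2 of 4 controls closest to their own number), 26 rose and 2 fell. With the block the log2 ratio differed by -0.89 for Psmb8 to Psmb5, -1.11 for Psmb9 to Psmb6 and -1.45 for Psmb10 to Psmb7, each at an exact sign-flip p of 0.125, the smallest that 4 pairs allow. With 1 library left out these differences ran over -1.05 to -0.61, -1.43 to -0.96 and -1.52 to -1.37, and Psmb9 to Psmb6 reached an exact permutation p of 0.0429 (adjusted) at -1.43 without control library 4. Genes near 0 changed sign without reaching a call. Psmd10 ranged from -0.021 to 0.25 and Psmd5 from -0.20 (both lowest without tumor library 4) to 0.16. Psmd9 ran from -0.0905 to 0.026 with 1 library left out (positive without control 1 or tumor 3, at 0.0019 for the latter), and Psme2b from -0.46 to 0.14 (positive in the same fits, at 0.083 without control 1). Psme4 went from -0.0041 without both control 4 and tumor 2 to 0.21, and Sem1 from -0.043 with upper-quartile scaling, through -0.0098 without tumor 4, to 0.098. The cause of these changes was not tested. Low counts limit what can be said of Psmb9, Psmg4 and Psme2b.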
